A study of Mus musculus with 4 samples.

Results

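The potassium channel genes of neonatal mouse cochlear progenitors were compared between Lgr5+ and Lgr6+ progenitors. The genes were chosen by their symbol alone (Kcn, one or more letters for the subfamily, then a number), which covers pore-forming subunits and the auxiliary subunits that bind them, and 92 of the 23997 genes in the table met this rule. Lgr5+ progenitors were EGFP+ cells sorted by flow cytometry from cochleae of Lgr5-EGFP-IRES-CreERT2 mice, and Lgr6+ progenitors were EGFP+ cells sorted from Lgr6-EGFP-IRES-CreERT2 mice. Both lines were of the C57BL/6 strain, both were sorted at postnatal day 3 (P3), neither received a treatment that the labels name, and each reporter was driven by the gene whose name the population carries. The labels list 2 samples for each population and 4 in all, whereas the methods describe the RNA of each population as divided into 3 fractions, so replicates of that kind share an extraction. For each gene the table gives 1 combined FPKM value per population (a fragment count divided by transcript length and library total), so levels can be set side by side between genes per length. There is therefore no spread between replicates, no test and no error for any difference below.

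Potassium channels let K+ leave or enter a cell along its electrochemical gradient and thereby set the resting potential, shape receptor potentials and carry K+ across epithelia. In the cochlea, K+ is the ion that enters hair cells (HCs) through the mechanotransduction channels, is taken up by supporting cells (SCs) and fibrocytes, and is secreted back into endolymph by the stria vascularis. HCs exchange their set of K+ channels as they mature, and several of the deafness genes of mouse and human belong to this family.

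The sorted populations were first checked against marker genes, which carry no sample-to-sample error here either. *Lgr5* was listed at an FPKM of 9.65 in Lgr5+ and 25.0 in Lgr6+ progenitors, and *Lgr6* at 2.06 and 2.90, so both receptors were higher in Lgr6+ progenitors, *Lgr5* past 1.5-fold and *Lgr6* not. In both lines the reporter cassette sits in the receptor gene itself, and the populations are named below by the reporter on which they were sorted. The SC gene *Sox2* was present in both at 140 and 54.8. All 12 genes of an HC marker list also passed an FPKM of 1 in at least one population, as did all 10 genes of an SC marker list.

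Of the 92 potassium channel genes, 34 (37.0%) reached an FPKM of 1 in one population or both and were kept, against 56.0% of all genes. Another 31 were above 0 but under 1 in both. The other 27 (29.3%) were listed at 0 in both, close to the 31.6% of all genes. The log2 change is log2(FPKM + 1) in Lgr6+ minus that in Lgr5+ progenitors, and a gene was counted as higher in one population where this change was 1.5-fold or more. On this scale the added 1 makes the differences of low genes smaller. By this rule 22 of the 34 kept genes (64.7%) were higher in Lgr6+ progenitors, against 28.5% of the 13436 kept genes of the whole table. Only 3 of the 34 (8.82%) were higher in Lgr5+ progenitors, against 23.3% of all kept genes. The remaining 9 differed by less than 1.5-fold. The median log2 change of the 34 genes was 1.12, and that of all kept genes was 0.03.

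**Figure D1:**
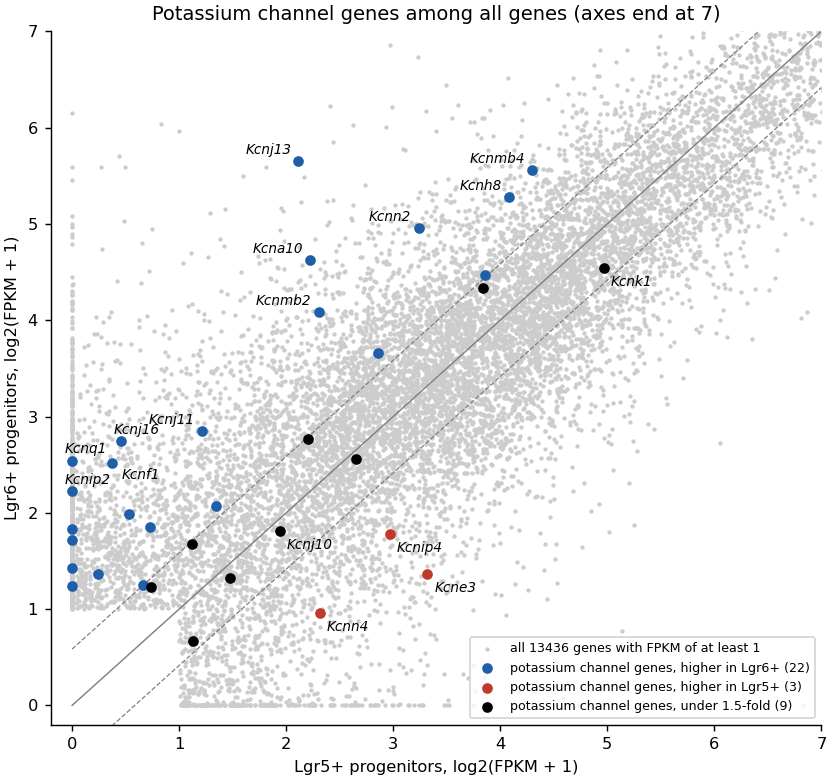
Each point is a kept gene (FPKM 1 or more in one population or both), with log2(FPKM + 1) in Lgr5+ progenitors on the x axis and in Lgr6+ progenitors on the y axis, both axes ending at 7. Grey points are all genes, coloured points are the 34 kept potassium channel genes, the solid line marks equal values and the dashed lines 1.5-fold; 22 potassium channel genes lie at or above the upper dashed line and 3 at or below the lower one.

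The split did not rest on the smallest differences. At a 2-fold threshold 18 of the 34 genes were higher in Lgr6+ progenitors, against 18.2% of all kept genes, and 3 were higher in Lgr5+ progenitors, against 11.7%. Kept genes include those that passed only through the population in which they were high, so genes that reached an FPKM of 1 in each of them were also counted. There were 19 such potassium channel genes, of which 10 were higher in Lgr6+ progenitors, against 21.4% of 11177 genes, and 2 were higher in Lgr5+ progenitors, against 22.5%. Their median log2 change was 0.61.

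Low genes differ more readily than abundant ones, so the counts were also read by level, taking the larger of the 2 FPKM values of each gene. From an FPKM of 1 to under 3, 8 of 13 potassium channel genes were higher in Lgr6+ progenitors, against 42.8% of all genes at that level, and 0 were higher in Lgr5+ progenitors, against 21.4%. From 3 to under 10 the counts were 6 and 3 of 11 genes, against 33.8% and 20.7% of all genes. From 10 to under 60 the counts were 8 and 0 of 10 genes, against 24.7% and 23.5%. The distance from the background was widest in the most abundant class, but a gene could enter that class through its level in a single population. Of its 10 potassium channel genes, 5 reached an FPKM of 10 in Lgr5+ progenitors. The others, *Kcnj13*, *Kcna10*, *Kcnmb2*, *Kcns3* and *Kcnn2*, entered through their Lgr6+ value alone, and all were counted as higher in Lgr6+ progenitors. No potassium channel gene reached an FPKM of 60, a level that 1925 genes of the table exceeded.

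**Figure D2:**
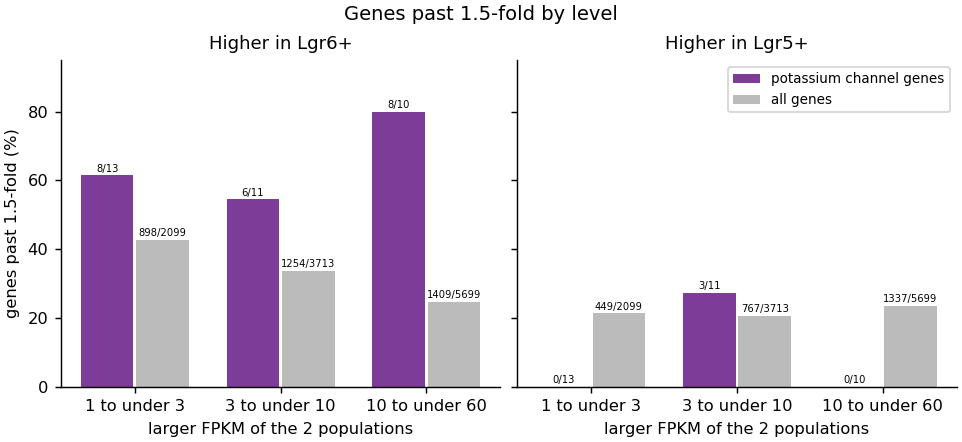
Bars give the percentage of genes past 1.5-fold toward Lgr6+ progenitors (left) and toward Lgr5+ progenitors (right) for potassium channel genes and for all genes, by the larger FPKM of the 2 populations, and the numbers above the bars are genes past the threshold over genes in the class. In the class from 10 to under 60, 8 of 10 potassium channel genes were higher in Lgr6+ progenitors and 0 of 10 in Lgr5+ progenitors.

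The summed FPKM of the 92 genes was 162.4 in Lgr5+ and 351.9 in Lgr6+ progenitors, a ratio of 2.17, although the FPKM of the whole table summed to less in Lgr6+ than in Lgr5+ progenitors, at a ratio of 0.833. Without *Kcnj13*, the member with the largest difference, the sums were 159.1 and 302.7. In Lgr5+ progenitors 5 genes exceeded an FPKM of 10, and in Lgr6+ progenitors 10 did. The 5 most abundant genes made up 56.5% of the summed level in Lgr5+ and 53.1% in Lgr6+ progenitors, and only 2 genes, *Kcnmb4* and *Kcnh8*, were among the 5 in both. In Lgr5+ progenitors the order began with *Kcnk1*, *Kcnmb4*, *Kcnh8*, *Kcnh6* and *Kcnh2*. In Lgr6+ progenitors it began with *Kcnj13*, *Kcnmb4*, *Kcnh8*, *Kcnn2* and *Kcna10*, so a leak channel led the first population and an inward rectifier the second. Whether neighbours in these orders differ beyond replicate error is not known.

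By subfamily, every group of pore-forming subunits held at least 1 gene higher in Lgr6+ progenitors, and the 3 genes higher in Lgr5+ progenitors were 2 auxiliary subunits and 1 calcium-activated pore. The 77 pore-forming genes had 25 kept, 15 higher in Lgr6+ and 1 higher in Lgr5+ progenitors, with a median log2 change of 0.73. The 15 auxiliary subunits had 9 kept, 7 higher in Lgr6+ and 2 higher in Lgr5+ progenitors, with a median of 1.43. No kept auxiliary subunit was thus under 1.5-fold, against 6474 of all 13436 kept genes. Of all kept genes, 28.5% were higher in Lgr6+ and 23.3% in Lgr5+ progenitors. The share of kept auxiliary subunits higher in Lgr5+ progenitors (22.2%) was therefore close to that of all kept genes.

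**Figure D3:**
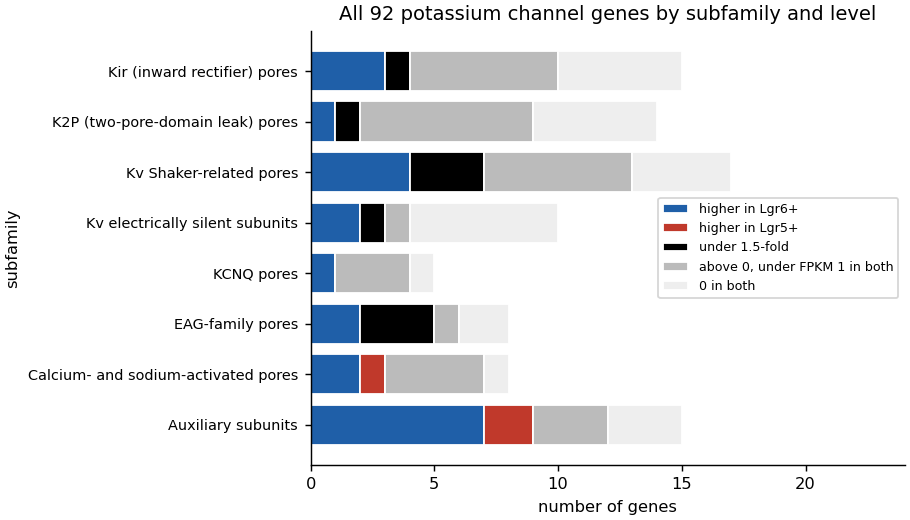
Stacked bars count all 92 potassium channel genes by subfamily, coloured by whether the gene was higher in Lgr6+ progenitors, higher in Lgr5+ progenitors, under 1.5-fold, above 0 but under an FPKM of 1 in both, or listed at 0 in both. The red segments, genes higher in Lgr5+ progenitors, appear in 2 rows and hold 1 and 2 genes.

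The inward rectifiers (Kir channels), which pass K+ more easily into than out of the cell and hold the membrane near the K+ equilibrium potential, gave the largest difference. *Kcnj13*, which encodes Kir7.1 of K+-transporting epithelia, was at an FPKM of 3.33 in Lgr5+ and 49.1 in Lgr6+ progenitors, 14.8-fold higher in the latter, with a log2 change of 3.53. It was the 15th of the 92 genes in Lgr5+ progenitors and the first in Lgr6+ progenitors. The deposited interval of *Kcnj13* (GRCm38, chr1:87326998-87450810) is also that of *Gigyf2*, because RefSeq places *Kcnj13* (chr1:87384577-87394729) within the span of the larger gene. *Gigyf2* went the other way, from an FPKM of 17.3 in Lgr5+ to 6.43 in Lgr6+ progenitors, and since the strandedness of the libraries is not given in the sources used here, reads of the overlapping genes cannot be told apart with certainty.

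*Kcnj16* (chr11:110968033-111027967), whose product Kir5.1 forms channels together with Kir4.1, was at 0.370 in Lgr5+ and 5.69 in Lgr6+ progenitors, 15.4-fold higher, with a log2 change of 2.29. Its partner *Kcnj10*, which encodes the Kir4.1 of strial intermediate cells, SCs and glia, was at 2.83 and 2.50, a log2 change of -0.13, whose sign turned (0.07) when both columns were scaled to the same sum. Of the partners, *Kcnj16* was thus past the threshold and *Kcnj10* was not. *Kcnj2*, 38.2 kb from *Kcnj16* on chromosome 11, was at 0.012 and 0.269. *Kcnj9*, 11.9 kb from *Kcnj10* on chromosome 1, was listed at 0 in both.

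*Kcnj11*, the Kir6.2 pore of ATP-sensitive channels, was at 1.31 in Lgr5+ and 6.20 in Lgr6+ progenitors, 4.72-fold higher. *Abcc8*, the sulfonylurea receptor that assembles with this pore, was at 3.11 and 3.20 and so at nearly one level in both. Of the 15 inward rectifiers, 4 (26.7%) were kept, against 56.0% of all genes, and 5 (33.3%) were listed at 0 in both, against 31.6%. The summed level of the 15 went from 7.95 to 65.1, mostly through *Kcnj13*.

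The sequences just upstream of 4 genes are shown because these genes had the largest differences among those with a window in the RefSeq promoter table, which are *Kcnj13*, *Kcna10* and *Kcnj16* toward Lgr6+ progenitors and *Kcne3* toward Lgr5+ progenitors. Each run is GRCm38.p6 sequence on the gene's own strand, 5′ to 3′, ending at the base before the annotated start, and capitals mark the E-box CAGCTG and the related CAGATG on either strand, letters that proneural factors such as Atoh1 are known to bind. The runs are 250 bases long, except that the one of *Kcne3* was limited to 87 bases outside a longer RefSeq transcript.
Kcnj13, chr1:87394730-87394979, minus strand: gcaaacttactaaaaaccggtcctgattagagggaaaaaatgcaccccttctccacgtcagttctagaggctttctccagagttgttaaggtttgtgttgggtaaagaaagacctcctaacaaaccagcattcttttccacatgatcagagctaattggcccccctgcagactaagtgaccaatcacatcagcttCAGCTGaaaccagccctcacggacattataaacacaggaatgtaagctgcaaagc
Kcna10, chr3:107182893-107183142, plus strand: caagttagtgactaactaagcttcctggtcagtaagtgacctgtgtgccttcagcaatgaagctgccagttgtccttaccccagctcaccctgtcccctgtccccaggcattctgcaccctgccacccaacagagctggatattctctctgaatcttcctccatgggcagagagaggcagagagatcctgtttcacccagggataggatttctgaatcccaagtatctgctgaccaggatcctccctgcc
Kcnj16, chr11:110967783-110968032, plus strand: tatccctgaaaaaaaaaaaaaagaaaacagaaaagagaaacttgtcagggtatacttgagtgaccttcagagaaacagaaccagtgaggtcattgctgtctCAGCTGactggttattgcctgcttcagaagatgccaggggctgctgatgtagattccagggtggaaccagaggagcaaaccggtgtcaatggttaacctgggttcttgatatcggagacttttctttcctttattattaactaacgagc
Kcne3, chr7:100176420-100176506, plus strand: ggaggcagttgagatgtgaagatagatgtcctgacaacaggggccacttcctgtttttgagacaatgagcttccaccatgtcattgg

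The windows of *Kcnj13* and *Kcnj16* each held 1 CAGCTG, beginning 55 and 149 bases before the start. The window of *Kcna10* and the 87 printed bases of *Kcne3* held neither motif. At least 1 of the 2 motifs was found in 25.5% of all 32851 windows of 250 bases in the RefSeq table, in 35.9% of 92 windows of 67 potassium channel genes (33 windows) and in 16.7% of 24 windows of the 15 genes higher in Lgr6+ progenitors that had one (4 windows). The windows of the genes higher in Lgr6+ progenitors were thus no richer in these letters than the table as a whole. At least 1 of the 2 motifs was in 2 of 5 windows of the 3 genes higher in Lgr5+ progenitors. It was in 43.9% of 57 windows of potassium channel genes that were not kept. Searched in the same way, the letters TGGGAA (known from the Notch factor Rbpj) were in 5 of the 24 windows against 21.6% of all windows, the letters CTTTGA (known from Tcf and Lef factors) in 1 against 13.8%, and the letters AACAAT (known from Sox factors) in 0 against 9.42%. A match is a description of the sequence, and several windows can belong to 1 gene.

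Among the Shaker-related voltage-gated (Kv) pores, which open on depolarisation, *Kcna10* (chr3:107183143-107195721) had the largest difference. It encodes Kv1.8, known from sensory HCs, and was at an FPKM of 3.68 in Lgr5+ and 23.7 in Lgr6+ progenitors, 6.44-fold higher, with a log2 change of 2.40. *Kcna2* and *Kcna3*, which lie next to it on chromosome 3 with gaps of 68.1 kb and then 63.4 kb, did not share this difference. *Kcna2*, a Kv channel of axons, was at 1.78 and 1.496, and *Kcna3*, known from lymphocytes, was listed at 0 in both.

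Of the 17 genes of this group 7 (41.2%) were kept, against 56.0% of all genes. Of these, 4 were higher in Lgr6+ and 0 in Lgr5+ progenitors, against 28.5% and 23.3% of all kept genes. Their median log2 change was 0.59. The Kv4 pores *Kcnd1* and *Kcnd2* were listed at 0 in both populations, and *Kcnd3* at 0 and 0.005.

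The electrically silent subunits form no channel by themselves and modify Kv2 channels. *Kcnf1* was at 0.299 in Lgr5+ and 4.72 in Lgr6+ progenitors, 15.8-fold higher, the largest ratio among the genes above 0 in both populations that were kept. *Kcns3* was at 6.23 and 11.7, with a log2 change of 0.81. Of the 10 silent subunits 6 were listed at 0 in both populations, against 31.6% of all genes.

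The KCNQ channels are slowly opening voltage-gated pores. *Kcnq1*, whose product with *Kcne1* secretes K+ into endolymph in strial marginal cells, was listed at 0 in Lgr5+ progenitors and at 4.83 in Lgr6+ progenitors. Its auxiliary subunit *Kcne1* was listed at 0 in both, and the strial marginal cell gene *Bsnd* was also listed at 0 in both. *Kcnq1ot1*, a long noncoding RNA from within the *Kcnq1* gene on the opposite strand, was at 5.10 and 10.3, so the library strand also matters to the value of *Kcnq1*. *Kcnq1* was the only one of the 5 KCNQ genes that was kept (20.0%, against 56.0% of all genes).

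The EAG family, which includes the erg channels, supplied *Kcnh8*, the most abundant voltage-gated pore gene of both populations. This gene (chr17:52602709-52979194), an Elk channel, was at 15.98 in Lgr5+ and 37.8 in Lgr6+ progenitors, 2.36-fold higher, with a log2 change of 1.19. *Kcnh6*, an erg channel, was at 13.5 and 21.1, with a log2 change of 0.61 that is close to the threshold of 0.58. *Kcnh2*, the cardiac erg channel, was at 13.3 and 19.2, with a log2 change of 0.49 that reached the threshold (0.75) when both columns were scaled to the same sum. The 3 abundant EAG genes thus shared a direction and differed in size. *Kcnh7*, the third erg gene, was at 5.27 and 4.89, and *Kcnh3* was at 1.19 and 0.592 in an interval it shares with *Mcrs1*.

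Among the pores opened by intracellular Ca2+, *Kcnn2* and *Kcnn4* went in opposite directions. *Kcnn2*, the SK2 channel that acts with the efferent nicotinic receptor in HCs, was at 8.42 in Lgr5+ and 30.1 in Lgr6+ progenitors, 3.57-fold higher, with a log2 change of 1.72. A noncoding gene in the same interval, *A330093E20Rik*, was at 1.17 and 7.72. *Kcnn4*, the intermediate-conductance channel of secretory epithelia and red blood cells, was at 3.97 in Lgr5+ and 0.945 in Lgr6+ progenitors, 4.20-fold higher in Lgr5+ progenitors, with a log2 change of -1.35. The summed FPKM of 6 erythroid markers was 629.8 in Lgr5+ and 108.0 in Lgr6+ progenitors. Of the 5 kept markers, 4 were higher in Lgr5+ progenitors, against 23.3% of all kept genes. The part of red blood cell RNA in the value of *Kcnn4* was not tested. *Kcnma1*, the BK pore, was listed at 0 in Lgr5+ and at 1.36 in Lgr6+ progenitors.

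Of the 4 auxiliary subunits of BK channels that the symbol rule covers, *Kcnmb4* and *Kcnmb2* were above the BK pore *Kcnma1* in FPKM. *Kcnmb1* (0 and 0.010) and *Kcnmb3* (0 in both) were not. *Kcnmb4* (chr10:116417868-116473523) was at 18.7 in Lgr5+ and 46.2 in Lgr6+ progenitors, 2.47-fold higher and second in both populations, with a log2 change of 1.26. *Kcnmb2*, whose product makes BK channels inactivate, was at 3.94 and 15.97 (4.05-fold higher), with a log2 change of 1.78. The antisense gene *Kcnmb4os1* in the interval of *Kcnmb4* was at 5.90 and 9.13.

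The K+ channel interacting proteins, calcium-binding partners of Kv4 pores, had 2 genes higher in Lgr6+ progenitors and 1 higher in Lgr5+ progenitors. *Kcnip2* was listed at 0 in Lgr5+ and at 3.66 in Lgr6+ progenitors. *Kcnip3*, named after its values were seen, was at 0.658 and 2.60, 3.95-fold higher in Lgr6+ progenitors, whereas *Kcnip4* was at 6.83 in Lgr5+ and 2.43 in Lgr6+ progenitors, 2.80-fold higher in Lgr5+ progenitors, with a log2 change of -1.19. The noncoding gene *5730480H06Rik* in the same interval as *Kcnip4* was likewise higher in Lgr5+ progenitors, at 11.7 and 5.28. *Dpp6* and *Dpp10*, the transmembrane partners of Kv4 pores, were at 1.49 and 4.003 and at 3.28 and 11.8. The Kv4 partners were therefore measured while the Kv4 pores themselves were at or near 0 (values above).

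*Kcne3* (chr7:100176670-100184869), a single-span subunit that keeps KCNQ1 channels open in epithelia, was the most Lgr5+-weighted of the 34 genes. It was at an FPKM of 8.98 in Lgr5+ and 1.58 in Lgr6+ progenitors, 5.67-fold higher in Lgr5+ progenitors, with a log2 change of -1.95. Its known pore *Kcnq1* was listed at 0 in the population in which *Kcne3* was higher. *Kcne2*, named after its values were seen together with *Kcnab2* and *Kcnab3*, was listed at 0 in Lgr5+ and at 2.57 in Lgr6+ progenitors, and the Kv beta subunits *Kcnab2* and *Kcnab3* were at 0.450 and 2.97 and at 0 and 1.69.

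The leak channels of the K2P family, which stay open at rest, were the one subfamily whose summed level was lower in Lgr6+ progenitors, 31.9 in Lgr5+ against 25.7. The ratio of these sums, 0.807, was close to the 0.833 of the whole table. This sum was carried by *Kcnk1* (chr8:125995102-126030688), the first of the 92 genes in Lgr5+ progenitors, which was at 30.2 and 22.4, a log2 change of -0.42 and under the threshold. *Kcnk3*, an acid-sensitive leak channel named after its values were seen, was listed at 0 in Lgr5+ and at 2.30 in Lgr6+ progenitors. *Kcnk2*, a mechanosensitive leak channel, was at 0.785 and 0.855 and so under the level at which genes were counted. Of the 14 genes 12 were not kept, so 14.3% were kept, against 56.0% of all genes. All 3 genes of the family list that were at 0 in Lgr6+ progenitors alone belonged here (*Kcnk6*, *Kcnk9* and *Kcnk5*). Their Lgr5+ values were 0.671, 0.126 and 0.0816.

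**Figure D4:**
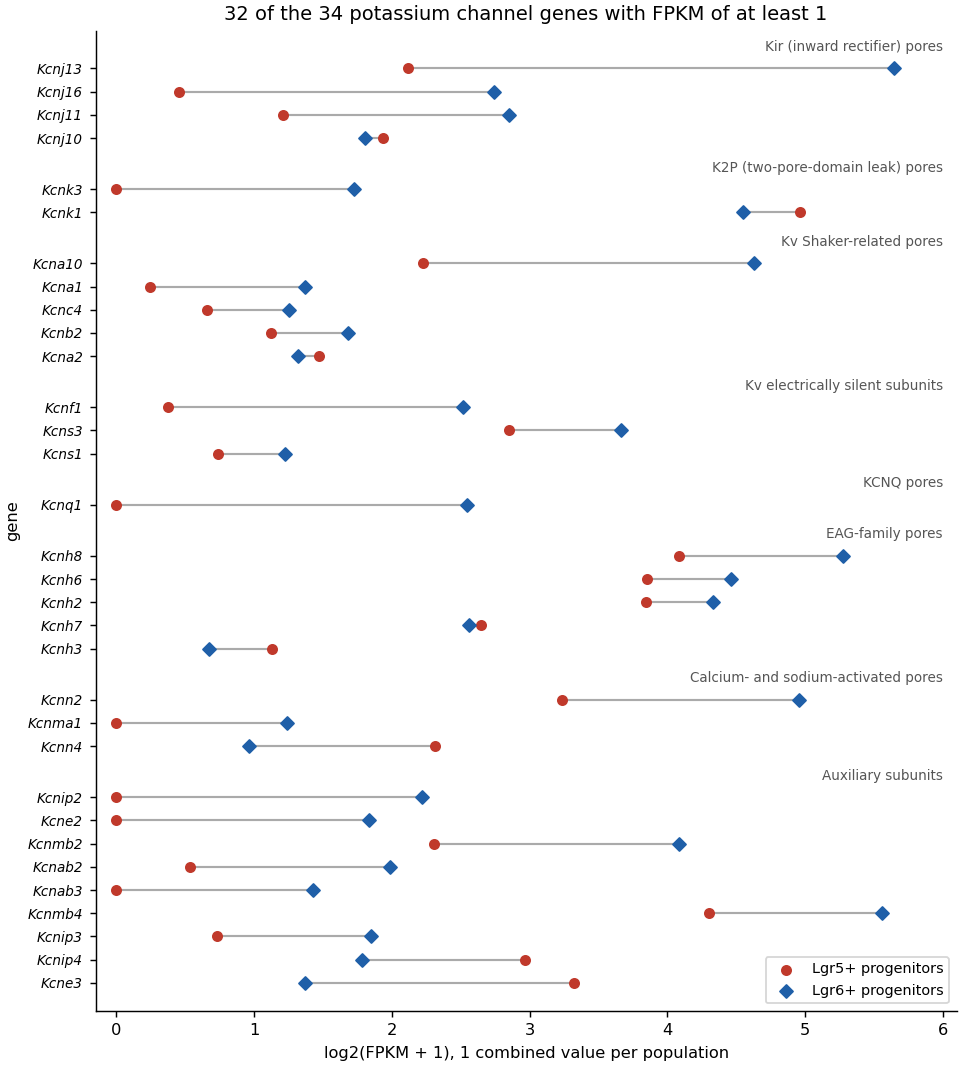
For 32 of the 34 kept potassium channel genes, a circle gives log2(FPKM + 1) in Lgr5+ progenitors and a diamond that in Lgr6+ progenitors, 1 combined value each, joined by a line and grouped by subfamily. The longest line is that of *Kcnj13* (a log2 change of 3.53), and the circle lies to the right of the diamond in 8 genes, among them *Kcne3*, *Kcnn4* and *Kcnip4*.

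The values of 0 were themselves uneven between the populations. Of the 92 genes, 23 (25.0%) were listed at 0 in Lgr5+ progenitors alone, against 7.70% of all genes, and 3 (3.26%) in Lgr6+ progenitors alone, against 2.60%. Of the 34 kept genes, 6 were at 0 in Lgr5+ progenitors (*Kcnq1*, *Kcnip2*, *Kcne2*, *Kcnk3*, *Kcnab3* and *Kcnma1*) and 0 in Lgr6+ progenitors. Of all 13436 kept genes, 556 were at 0 in Lgr5+ and 156 in Lgr6+ progenitors. A kept gene at 0 in one population passed the filter through the other alone. The low values were spaced differently in the populations. FPKM was multiplied by transcript length less 200 bases, in kb, over 7050 genes with a single transcript. The low products clustered most strongly at a step of 0.128 in Lgr5+ and 0.0402 in Lgr6+ progenitors, a ratio of 3.19. For the 6 kept genes, each taken at its longest transcript, 1 such step in Lgr5+ progenitors would be an FPKM of 0.0292 to 0.0861. This is well under their values of 1.36 to 4.83 in Lgr6+ progenitors. Since an estimate that failed may be listed as 0 too, no fold is given for these genes, and whether a step is 1 fragment is not known.

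Other ion-handling genes were set beside these for comparison. Of all 13436 kept genes 28.5% were higher in Lgr6+ and 23.3% in Lgr5+ progenitors, with a median log2 change of 0.03. Of 26 kept calcium, sodium and TRP channel genes, 16 were higher in Lgr6+ and 5 in Lgr5+ progenitors, with a median log2 change of 0.73. Of 18 kept chloride channel genes, 4 (22.2%) were higher in each population, near the shares of all kept genes, with a median of -0.18. Of 15 genes that cycle K+ through the cochlea with the channels (cotransporters, Na+/K+-ATPase subunits, connexins), 11 were kept, 2 were higher in Lgr6+ and 1 in Lgr5+ progenitors, and the median was 0.03. The difference between the families was not tested, since each has 1 value per gene and population.

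Several marker lists of other cell types were also weighted toward Lgr6+ progenitors. Their counts stand against 28.5% of all kept genes higher in Lgr6+ and 23.3% higher in Lgr5+ progenitors. Of 12 HC markers 9 were higher in Lgr6+ and 0 in Lgr5+ progenitors, and their summed FPKM was 946.5 in Lgr5+ and 1632 in Lgr6+ progenitors. Among them *Tmc1*, a subunit of the HC transduction channel, was at 1.058 and 23.1, *Otof* at 41.6 and 171, and *Pvalb* at 476.9 and 408.4. Of 10 SC markers 2 were higher in Lgr6+ and 3 in Lgr5+ progenitors, with sums of 1211 and 618.6. The HC marker *Myo7a* was at 19.3 and 47.0 in these cells, which were sorted on EGFP. The part of HC RNA in the levels of *Kcna10*, *Kcnn2* and the other HC channel genes was not tested, and in sorted bulk samples fewer cells of a type cannot be told apart from less RNA per cell.

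Macrophage markers went from a sum of 1.47 in Lgr5+ to 256.0 in Lgr6+ progenitors, with all 7 kept of 9 genes higher in Lgr6+ progenitors. Endothelial markers went from 13.4 to 83.5, with 7 of 8 higher in Lgr6+ and 1 (*Tie1*) in Lgr5+ progenitors. Fibrocyte and mesenchyme markers went from 338.3 to 670.0, with 6 of 10 higher in Lgr6+ and 1 (*Lum*) in Lgr5+ progenitors. Schwann cell and glia markers went from 76.4 to 198.7, with 3 of the 6 kept genes higher in Lgr6+ and 1 (*Mag*) in Lgr5+ progenitors. Neuron markers summed to 128.0 and 150.4, with 3 of the 8 kept genes (37.5%) higher in Lgr6+ and 2 (25.0%) in Lgr5+ progenitors. These neuron shares were not far from the 28.5% and 23.3% of all kept genes. Melanocyte markers summed to 1.68 and 3.996, with 1 of the 2 kept genes higher in each population. Pericyte markers summed to 12.6 in both, with 1 of the 3 kept genes higher in Lgr6+ and 0 in Lgr5+ progenitors. The 4 strial marginal cell markers were all under an FPKM of 1 and summed to 0.312 and 0.148. The part of these cell types in the potassium channel values was not tested.

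**Figure D5:**
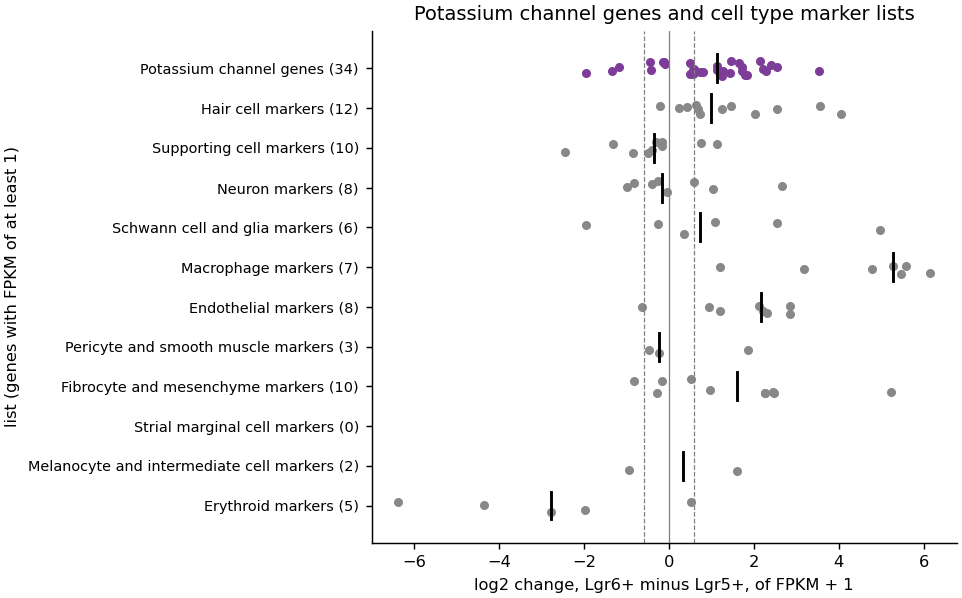
Each point is the log2 change (Lgr6+ minus Lgr5+, of FPKM + 1) of a kept gene, in the potassium channel genes (top row, 34 genes) and in 11 cell type marker lists, with the number of genes in brackets, a black bar at the median and dashed lines at 1.5-fold. The vertical position of points within a row is arbitrary. The median of the potassium channel genes (1.12) lies near that of the HC markers (0.99), below that of the macrophage markers (5.27) and above that of the SC markers (-0.36).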

How the data were processed

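Per the labels and the methods, EGFP+ cells of each line were sorted at P3, cDNA was made with the SMART-Seq v4 kit, and the authors trimmed reads with Trimmomatic, mapped them with TopHat, annotated genes by RefGene and calculated FPKM with Cufflinks (versions not given in the sources used here). The deposited values are FPKM, 1 combined value per population, and no fit was run on them. The authors' own fold changes and p-values stand beside them and were not used. The methods name mm9 and the labels mm10. The intervals of 92 of the 92 genes overlapped GRCm38.p6 RefSeq, and 19 those of NCBIM37, so positions are given in GRCm38, with starts read as 0-based (38 starts then equalled RefSeq, against 2 otherwise) and printed from 1.

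A gene was kept where it reached an FPKM of 1 in one population or both, and called at 1.5-fold on log2(FPKM + 1), the pseudocount being 1. The rule for naming took called genes with an FPKM of at least 3, the 10 with the highest mean FPKM, 11 genes known from cochlear K+ handling, and the ends of subfamily ranges. The genes, lists and motifs were chosen with earlier results of these data known. The alternatives were a pseudocount of 0.1, other filters, scaling to one sum, quantile normalization, the same upper quartile and a 2-fold threshold, and leaving out the genes that share an interval was chosen after seeing the data. The table holds no counts, so depth is unknown and no counting interval is given. Upstream sequences are RefSeq's, and 67 of the 92 genes had one. Protein sequences were not used here, and some single-gene values are not reported here. All steps ran in Python 3.11.15 with pandas 2.3.3, numpy 2.4.6 and matplotlib 3.10.9 and were tested on simulated data.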

Additional observations from a re-analysis of the deposited data

How the results depend on the processing

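The count of potassium channel genes higher in Lgr6+ progenitors, 22 of 34 as reported, was 10 of 16 at a minimum FPKM of 5 and 10 of 19 with at least 1 in both populations, where fewer genes were counted, and between 17 and 26 under the other alternatives. The count higher in Lgr5+ progenitors stayed between 2 and 4. The median log2 change, 1.12, was 1.27 with a pseudocount of 0.1, 0.013 with no filter on low values (92 genes, 27 of them at 0 in both), 1.00 at a minimum of 5, 0.61 with at least 1 in both, 0.73 after quantile normalization and 0.81 without the genes that share an interval with another gene (17 higher and 2 lower of 27, chosen after seeing the data). Scaling both columns to one sum gave 1.46 and moved the median of all genes to 0.28. It gave 26 and 3 potassium channel genes and moved the share of all called genes that were higher in Lgr6+ progenitors from 55.0% to 69.0%, against 88.0% and 89.7% for the potassium channel genes. Of 150 recomputed values of 21 named genes, 0 reversed a call. No paired analysis was possible because the columns carry no replicates, and leaving out single samples was not run, since values of single samples were not analysed here.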

Other observations

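Genes of related channels that the symbol rule leaves out were also read. The hyperpolarization-activated cation channels, which carry K+ and Na+ and pace excitable cells, were read in 3 genes. *Hcn2* was at an FPKM of 0.143 in Lgr5+ and 1.16 in Lgr6+ progenitors, *Hcn3* at 1.19 and 2.88 and *Hcn4* at 0.795 and 2.07, so these 3 genes were higher in Lgr6+ progenitors by the 1.5-fold rule. *Kcnrg*, a regulator of Kv channel assembly, was at 0.054 and 0.025, and *Kcne1l* and *Kcnd3os* were listed at 0 in both.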
